A study of Striga hermonthica with 6 samples.

Results

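Among the small RNA loci of *Striga hermonthica* that ShortStack marked as *MIRNA*, 32 were longer than 130 nt and are described here. They were chosen by the mark and by the length of the locus (end minus start plus 1 in the deposited coordinates). ShortStack sets the mark from the pattern of reads at a locus, so a *MIRNA* locus needs reads to be marked, and levels and read floors set beside those of all loci below are descriptions that follow in part from the mark. The 32 loci stand among 68 *MIRNA* loci and 25056 small RNA loci of every kind. Of the other 36 *MIRNA* loci, 30 are 130 nt or shorter and 6 were left out, which form 3 pairs of neighbouring loci. One of those 6, Cluster_24066, is also longer than 130 nt.

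*S. hermonthica* is a parasitic weed that attaches to the roots of cereals. The study sequenced small RNA from plants of the kibos ecotype, which the labels give as the genotype of every sample, grown on rice (KitaakeX in the labels, Kitaake in the methods) in 16 hours of light at 30 °C for 45 days. The 6 libraries form 3 groups of 2: haustorium with no stage in the labels (replicates 1 and 3), here called unstaged, haustorium at stage 6 (replicates 1 and 2) and leaf at stage 6 (replicates 1 and 2). The sources used here do not define the stage or say whether a library is 1 plant, so the spread between libraries, which every test below rests on, may be technical.

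A plant *MIRNA* gene is transcribed as a single strand that folds back into a hairpin. Dicer-like enzymes cut a short duplex from the stem, and 1 strand of it, the miRNA, guides an Argonaute protein to matching transcripts, while the other strand, the miRNA*, is mostly lost. Hairpins of plants vary far more in length than those of animals. The haustorium is the organ that joins the parasite to the vessels of its host, and small RNAs are known to pass between some parasitic plants and their hosts. No miRNA family, mature sequence or target is given for these loci here, and no sequence is printed, since no genome sequence was used.

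The counted reads of a library came to between 3031863 and 8381235. CPM is the read count of a locus per 1000000 counted reads of its library, and 1 read was worth between 0.119 and 0.330 CPM. Leaf replicate 1 and stage 6 haustorium replicate 2 were set apart by scaling factors of 1.75 and 1.77 in edgeR's TMM method, which sets libraries on the level of their typical locus, against 0.608 to 0.981 in the other 4. These 2 libraries are said below to stand apart, and some of the results that rest on them are also given without them. In whole tissue, fewer cells that make a small RNA and less of it per cell cannot be told apart.

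The 32 loci ranged from 131 to 258 nt with a median of 165.5 nt. Of these, 26 were longer than 140 nt, 19 longer than 150 nt and 9 longer than 200 nt. The shorter *MIRNA* loci covered a narrow range, from 102 to 130 nt. All 32 gave reads in every library, and their mean level, taken over the 3 group means, ran from 11.4 CPM at Cluster_2036 to 1709 CPM at Cluster_1694. Its median was 95.2 CPM, beside 45.2 CPM over the 30 shorter *MIRNA* loci and 7.86 CPM over all loci. Length and level were only weakly related within the 32 loci, with a Spearman correlation of -0.15 that is given as a description, since the points share the same libraries. Loci of 131 to 140 nt (n = 6) had a median of 158 CPM, those of 141 to 150 nt (n = 7) 105.9 CPM, those of 151 to 200 nt (n = 10) 83.4 CPM and those over 200 nt (n = 9) 78.4 CPM. Just inside the limit, Cluster_10585 with 131 nt had a mean of 51.9 CPM and Cluster_21115 with 132 nt 191 CPM. Just outside, the 130-nt loci Cluster_15187 and Cluster_21530 had 10.6 and 739 CPM.

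**Figure D1:**
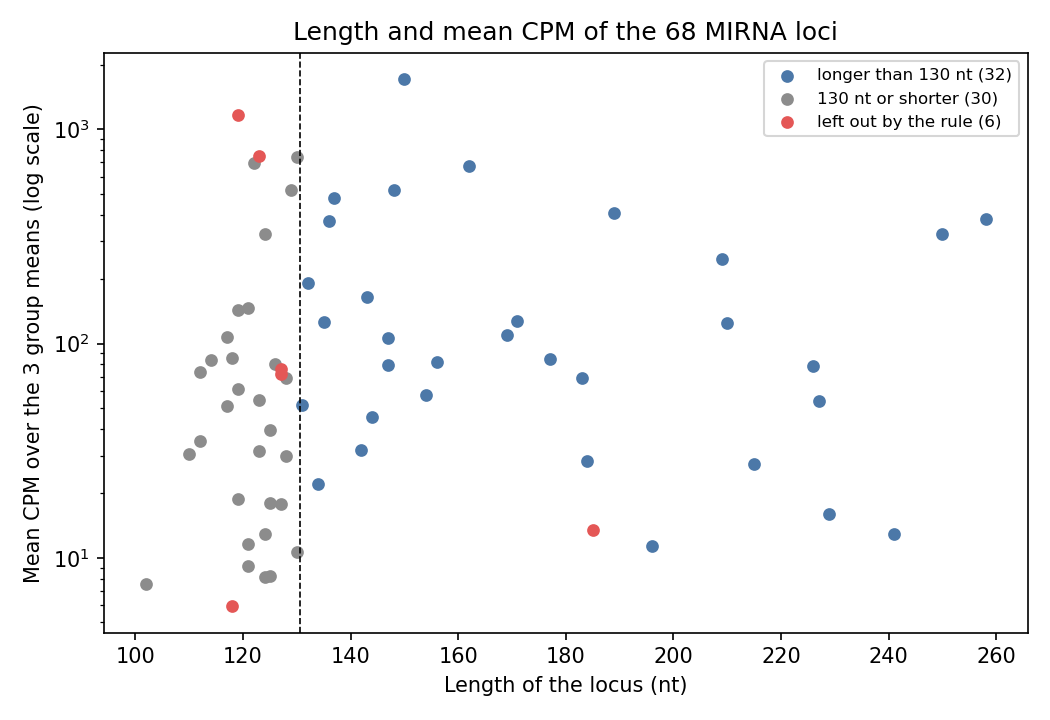
Length of each of the 68 *MIRNA* loci in nt (horizontal axis) against its mean CPM over the 3 group means (vertical axis, log scale). The dashed line separates the 32 loci longer than 130 nt (blue), which spread from 131 to 258 nt, from the 30 shorter loci (grey, 102 to 130 nt), and the 6 loci left out are in red.

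In the SHERM assembly the 32 loci lay on 23 contigs. None overlapped an annotated gene: 31 lay between genes, and the nearest gene was 299 to 57227 nt away (median 3519 nt), and Cluster_10585 lay on a contig with no annotated gene. The 28 shorter *MIRNA* loci that lay between genes had a median of 6491.5 nt, a difference that was not tested. Within 2000 nt of a gene lay 7 loci (Cluster_11214, Cluster_14355, Cluster_16982, Cluster_20958, Cluster_22608, Cluster_23467 and Cluster_24113), and 6 were more than 20000 nt away. The genes carry locus tags only, so no function can be given for them. The nearest small RNA locus of any kind was between 295 and 74879 nt away (median 4194 nt), and 5 loci had no other within 10000 nt. Cluster_7662 and Cluster_7663, with 250 and 258 nt the longest *MIRNA* loci of the series, shared contig CACSLK010016925.1 and were separated by 37951 nt.

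Of all counted reads, the 32 loci together took 0.457% and 0.369% in unstaged haustorium, 0.801% and 0.633% in stage 6 haustorium, and 1.15% and 0.680% in leaf. Both libraries of stage 6 haustorium were above both of unstaged haustorium, whereas the leaf libraries overlapped with those of stage 6 haustorium. The mean share was 0.413% ± 0.0625 (SD, n = 2), 0.717% ± 0.119 (SD, n = 2) and 0.916% ± 0.334 (SD, n = 2) in the 3 groups. Leaf exceeded the 4 haustorium libraries (0.565% ± 0.192, SD, n = 4) by 0.350 percentage points, which did not pass the test (two-sided exact permutation test, p = 0.267, where 15 splits allow no p below 0.133). Omitting leaf replicate 1, the difference was 0.115 percentage points, and without both libraries that stood apart 0.137 percentage points. With 2 libraries against 2, no two-sided p can fall below 0.333, and the test gave 0.667 for leaf against stage 6 haustorium and 0.333 for stage 6 against unstaged haustorium. The 27 loci below the 10 most abundant *MIRNA* loci held between 0.179% and 0.562% of all counted reads, or between 36.2% and 49.6% of the reads of the 32 loci. For comparison, the 30 shorter *MIRNA* loci took 0.152% and 0.148% in unstaged haustorium. They took 0.399% and 0.305% in stage 6 haustorium, and 0.832% and 0.280% in leaf.

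**Figure D2:**
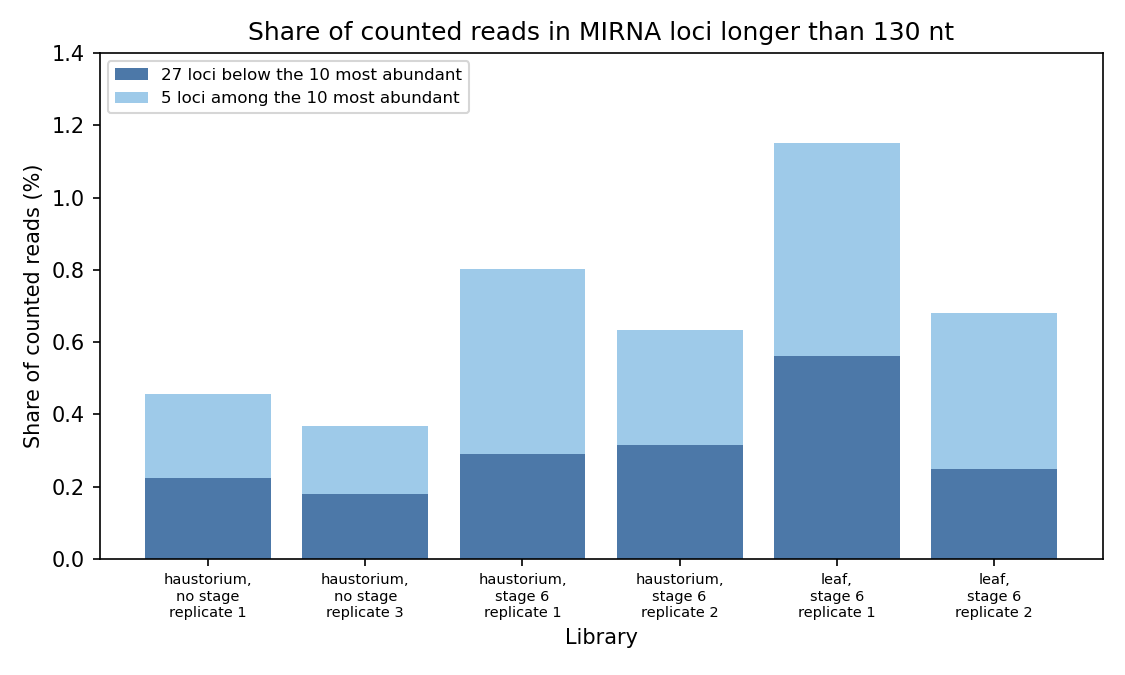
Share of the counted reads of each library (vertical axis, %) in the *MIRNA* loci longer than 130 nt, with the 27 loci below the 10 most abundant in dark blue and the 5 among them in light blue. The whole bars run from 0.369% in haustorium replicate 3 to 1.15% in leaf replicate 1.

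The groups did not follow the same order at all loci, though leaf was most often the highest. The mean CPM was highest in leaf at 20 loci, in stage 6 haustorium at 6 and in unstaged haustorium at 6. It was lowest in unstaged haustorium at 19 loci, in stage 6 haustorium at 11 and in leaf at 2. No share of all loci stands beside these counts. Leaf and stage 6 haustorium differed by less than the larger of their SDs at 29 of the 32 loci. Leaf replicate 1 alone was the highest library at 18 loci (56.3%), against 38.7% of all loci. After scaling by the TMM factors, leaf replicate 1 was the highest at 10 loci (20.6% of all loci). Leaf replicate 2 was the highest at another 10 on that scale (12.9% of all loci). Before scaling, haustorium replicate 3 was the lowest at 14 of the 32 loci and at 8574 of all 25056 loci. In the values that follow, libraries are given in the order replicate 1 and 3 for unstaged haustorium, and replicate 1 and 2 for the other groups. The values are CPM before TMM scaling unless stated, and so are the gaps between libraries of a group.

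**Figure D3:**
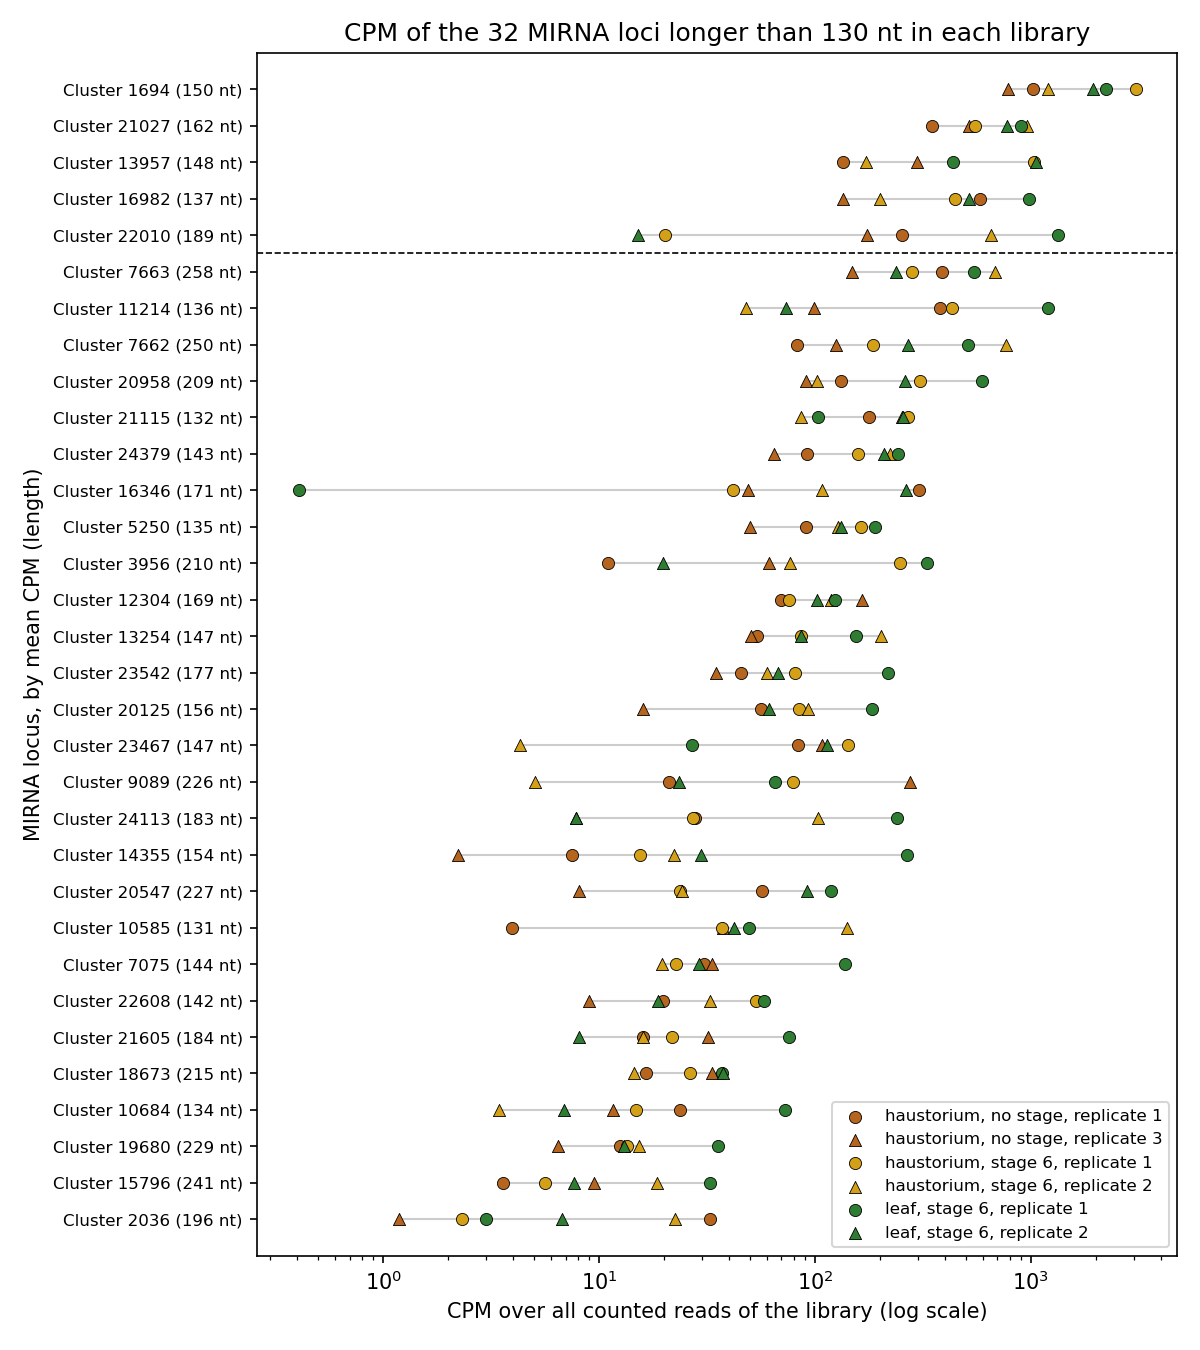
CPM of the 32 loci (rows, in the order of their mean CPM, with lengths) in each of the 6 libraries (horizontal axis, log scale). Colours mark the groups and shapes the replicates, grey lines join the lowest and highest library, and loci above the dashed line belong to the 10 most abundant *MIRNA* loci. The line of Cluster_16346 runs from 0.408 to 304 CPM, whereas that of Cluster_12304 runs from 69.3 to 166 CPM.

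At 5 loci both leaf libraries were above both libraries of stage 6 haustorium, and at none were both below, where 4.77% and 8.56% of all loci were above and below. After scaling by the TMM factors 7 were above and 0 below (12.3% and 11.6% of all loci), and 4 of the loci were found on both scales: Cluster_7075, Cluster_14355, Cluster_16982 and Cluster_20547. When each library was left out in turn the counts were 5 to 20 above and 0 to 8 below, the 20 without leaf replicate 2 and the 8 without leaf replicate 1, since a lone library overlaps with less by construction. No share of all loci stands beside these ranges, so whether they exceed it was not tested. At 3 loci (Cluster_14355, Cluster_18673 and Cluster_20547) both leaf libraries were above all 4 haustorium libraries, where 1.63% of all loci were, and at 0 were they below (2%). After scaling by the TMM factors 4 were above and 0 below, against 4.77% and 3.78% of all loci. Cluster_14355 and Cluster_20547 were found on both scales, and Cluster_19680 and Cluster_23542 after scaling only. Cluster_14355 (154 nt, positions 15788495 to 15788648 of CACSLK010027752.1, 1551 nt from the gene SHERM_24215) had 7.52 and 2.21 CPM in unstaged haustorium, 15.5 and 22.2 CPM in stage 6 haustorium, and 268 and 29.8 CPM in leaf. Both leaf libraries were above the other 4, but leaf replicate 1 was 9.02-fold above leaf replicate 2. These levels rest on 15 to 154 reads in the haustorium libraries, and on 1972 and 248 in leaf.

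Cluster_20547 (227 nt, positions 19814535 to 19814761 of CACSLK010030184.1, 3519 nt from the gene SHERM_04410) had 56.8 and 8.10 CPM in unstaged haustorium, 23.7 and 24.2 CPM in stage 6 haustorium, and 119 and 92.2 CPM in leaf. Here the leaf libraries were close, and both exceeded the highest haustorium library. The stage 6 haustorium libraries were nearly equal, while those without a stage lay on either side of them. Cluster_18673 (215 nt, positions 1615850 to 1616064 of CACSLK010028053.1, 8840 nt from the gene SHERM_02309) had 16.5 and 33.4 CPM in unstaged haustorium, 26.4 and 14.5 CPM in stage 6 haustorium, and 37.0 and 37.3 CPM in leaf. Before TMM scaling it had the closest pair of leaf libraries, which were 1.01-fold apart. Its leaf level exceeded that of the nearest haustorium library, replicate 3 without a stage, only narrowly. After scaling by the TMM factors, this locus no longer separated leaf from haustorium. Cluster_7075 (144 nt, positions 7081099 to 7081242 of CACSLK010015718.1, 24877 nt from the gene SHERM_16931) had 30.7 and 33.3 CPM in unstaged haustorium, 22.8 and 19.6 CPM in stage 6 haustorium, and 138 and 28.9 CPM in leaf. Leaf replicate 1 stood alone at this locus, and leaf replicate 2 lay below both libraries of unstaged haustorium. It was also the 1 locus of the 32 at which both stage 6 haustorium libraries were below both of unstaged haustorium (8.99% of all loci).

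Stage 6 haustorium was above unstaged haustorium in both libraries at 12 of the 32 loci (37.5%), where 25.7% of all loci were. Among the 30 shorter *MIRNA* loci this held at 15 (50%), so it was not particular to the longer ones. The count moved with the scaling: after TMM it was 5 above and 3 below, against 17.9% and 16.9% of all loci. Cluster_7662, Cluster_13254, Cluster_14355 and Cluster_24379 were found on both scales. Leaving out stage 6 haustorium replicate 2, which stood apart, the lone stage 6 library was above both others at 17 loci and below both at 3. A lone library overlaps with less by construction, and no share of all loci stands beside these counts. Cluster_24379 (143 nt, positions 18634787 to 18634929 of CACSLK010034598.1, 2927 nt from the gene SHERM_08409) had 91.5 and 64.6 CPM in unstaged haustorium, 158 and 223 CPM in stage 6 haustorium, and 243 and 209 CPM in leaf. The haustorium libraries without a stage were the lowest 2 of 6, and stage 6 haustorium replicate 2 and both leaf libraries lay close together. Cluster_5250 (135 nt, positions 9841630 to 9841764 of CACSLK010012206.1, 5448 nt from the gene SHERM_14900) had 90.7 and 49.9 CPM in unstaged haustorium, 163 and 128 CPM in stage 6 haustorium, and 190.0 and 132 CPM in leaf. As at Cluster_24379, all pairs of libraries of a group lay within 2-fold of each other on the scale of CPM + 1. This held for 4 of the 32 loci, the others being Cluster_18673 and Cluster_21027. It was counted before TMM scaling, whose factors were 1.75 and 0.649 in the leaf libraries and 0.833 and 1.77 in stage 6 haustorium. Scaling changes these ratios, and the count was not repeated after it. Cluster_13254 (147 nt, positions 6618061 to 6618207 of CACSLK010027751.1, 20727 nt from the gene SHERM_22908) had 53.7 and 50.4 CPM in unstaged haustorium, 86.4 and 203 CPM in stage 6 haustorium, and 155 and 86.5 CPM in leaf. Stage 6 haustorium replicate 1 and leaf replicate 2 were level here, and stage 6 haustorium replicate 2 was the highest library.

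Cluster_7662 (250 nt, positions 2144872 to 2145121 of CACSLK010016925.1, 55820 nt from the gene SHERM_01121) had 82.4 and 125 CPM in unstaged haustorium, 187 and 769 CPM in stage 6 haustorium, and 514 and 269 CPM in leaf. Its highest library was stage 6 haustorium replicate 2, 4.12-fold above replicate 1. Cluster_7663 (258 nt, positions 2183073 to 2183330 of CACSLK010016925.1, 17611 nt from the gene SHERM_01121) had 387 and 148 CPM in unstaged haustorium, 280.4 and 683 CPM in stage 6 haustorium, and 545 and 237 CPM in leaf. This neighbour on the same contig also had its highest level in stage 6 haustorium replicate 2 and its second highest in leaf replicate 1, but haustorium replicate 1 was high at Cluster_7663 and the lowest library at Cluster_7662. Cluster_20125 (156 nt, positions 9458119 to 9458274 of CACSLK010030184.1, 2052 nt from the gene SHERM_03837) had 56.0 and 15.9 CPM in unstaged haustorium, 84.8 and 92.9 CPM in stage 6 haustorium, and 183 and 61.6 CPM in leaf. Haustorium replicate 3 was low, and the 2 stage 6 haustorium libraries were 1.10-fold apart. Cluster_23542 (177 nt, positions 17025751 to 17025927 of CACSLK010034108.1, 14474 nt from the gene SHERM_07505) had 45.2 and 34.7 CPM in unstaged haustorium, 80.5 and 60.3 CPM in stage 6 haustorium, and 219 and 67.6 CPM in leaf. Apart from leaf replicate 1, the libraries of this locus lay between 34.7 and 80.5 CPM. After scaling by the TMM factors, both its leaf libraries were above all haustorium libraries.

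Cluster_3956 (210 nt, positions 619157 to 619366 of CACSLK010011299.1, 2914 nt from the gene SHERM_13306) had 10.98 and 61.2 CPM in unstaged haustorium, 248 and 76.5 CPM in stage 6 haustorium, and 329.6 and 19.7 CPM in leaf. The leaf libraries lay at the top and near the bottom of the range, 16.7-fold apart. Cluster_22608 (142 nt, positions 8769197 to 8769338 of CACSLK010032525.1, 299 nt from the gene SHERM_00523) had 19.8 and 8.98 CPM in unstaged haustorium, 53.4 and 32.5 CPM in stage 6 haustorium, and 58.1 and 18.7 CPM in leaf. Stage 6 haustorium overlapped with leaf and lay above unstaged haustorium. Cluster_19680 (229 nt, positions 3734149 to 3734377 of CACSLK010030184.1, 3436 nt from the gene SHERM_03339) had 12.5 and 6.48 CPM in unstaged haustorium, 13.5 and 15.2 CPM in stage 6 haustorium, and 35.7 and 13.1 CPM in leaf. All libraries but leaf replicate 1 lay between 6.48 and 15.2 CPM. The separation of the haustorium groups was slight, at 12.5 against 13.5 CPM in the nearest libraries. After scaling by the TMM factors, both leaf libraries of Cluster_19680 were above all haustorium libraries.

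The steadiest locus was Cluster_12304, with an SD of log2(CPM + 1) over the 6 libraries of 0.47, where the median of the 32 loci was 1.05, that of the shorter *MIRNA* loci 1.05 and that of all loci 1.19. Cluster_12304 (169 nt, positions 5514733 to 5514901 of CACSLK010026072.1, 14253 nt from the gene SHERM_22134) had 69.3 and 166 CPM in unstaged haustorium, 75.9 and 119 CPM in stage 6 haustorium, and 123 and 103 CPM in leaf. No group was separated from another, and the highest library was haustorium replicate 3, which was low at many other loci. Cluster_21115 (132 nt, positions 4315633 to 4315764 of CACSLK010030875.1, 2586 nt from the gene SHERM_05024) had 179 and 253 CPM in unstaged haustorium, 270.5 and 86.6 CPM in stage 6 haustorium, and 104 and 255 CPM in leaf. Stage 6 haustorium and leaf each spanned nearly the whole range of this locus. Cluster_20958 (209 nt, positions 2423680 to 2423888 of CACSLK010030875.1, 567 nt from the gene SHERM_04805) had 131 and 91.1 CPM in unstaged haustorium, 306 and 102 CPM in stage 6 haustorium, and 592 and 261 CPM in leaf. Leaf was highest on average, but leaf replicate 2 lay below stage 6 haustorium replicate 1. Cluster_15796 (241 nt, positions 3523616 to 3523856 of CACSLK010027829.1, 3784 nt from the gene SHERM_26000) had 3.58 and 9.42 CPM in unstaged haustorium, 5.61 and 18.6 CPM in stage 6 haustorium, and 32.5 and 7.68 CPM in leaf. It is the third longest locus of the set and among the least abundant, and its groups overlapped throughout before TMM scaling. After it, both leaf libraries were above both libraries of stage 6 haustorium.

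Cluster_10585 (131 nt, positions 319 to 449 of CACSLK010023752.1, with no annotated gene on the contig) had 3.94 and 37.7 CPM in unstaged haustorium, 37.3 and 141 CPM in stage 6 haustorium, and 49.7 and 42.1 CPM in leaf. It was high in stage 6 haustorium replicate 2 and low in haustorium replicate 1, with the other 4 libraries between 37.3 and 49.7 CPM. Cluster_21605 (184 nt, positions 8337026 to 8337209 of CACSLK010031421.1, 2110 nt from the gene SHERM_05589) had 16.0 and 32.1 CPM in unstaged haustorium, 21.8 and 16.0 CPM in stage 6 haustorium, and 75.7 and 8.04 CPM in leaf. Leaf replicate 1 was the highest and leaf replicate 2 the lowest library. Cluster_10684 (134 nt, positions 160202 to 160335 of CACSLK010024474.1, 57227 nt from the gene SHERM_20170) had 23.6 and 11.6 CPM in unstaged haustorium, 14.8 and 3.45 CPM in stage 6 haustorium, and 72.4 and 6.84 CPM in leaf. Again leaf replicate 1 was the highest, 10.6-fold above leaf replicate 2. Both loci belong to a larger number. At 11 of the 32 loci, the 2 libraries of at least 1 group were more than 8-fold apart on the scale of CPM + 1. This held at 8 loci in leaf, 4 in stage 6 haustorium and 2 in unstaged haustorium. In the same order of groups it held at 4247, 4008 and 2284 of all 25056 loci, and at 8, 3 and 3 of the 30 shorter *MIRNA* loci. Such gaps were thus not particular to the 32 loci. All these counts are on CPM before TMM scaling, whose factors were 1.75 and 0.649 in leaf replicates 1 and 2. Scaling narrows a gap of this size in leaf where replicate 1 is the higher library, and widens it where replicate 2 is.

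The largest gap of this kind lay at Cluster_16346 (171 nt, positions 3228690 to 3228860 of CACSLK010027832.1, 3610 nt from the gene SHERM_26743). It had 304 and 48.7 CPM in unstaged haustorium, 41.6 and 108 CPM in stage 6 haustorium, and 0.408 and 264 CPM in leaf. Leaf replicate 1 gave 3 reads and replicate 2 gave 2197, and the leaf libraries were the lowest and the second highest of the 6, so that the leaf mean of 132 ± 186 CPM (SD, n = 2) describes neither. Cluster_24113 (183 nt, positions 15056048 to 15056230 of CACSLK010034598.1, 1268 nt from the gene SHERM_08071) had 27.7 and 7.80 CPM in unstaged haustorium, 27.4 and 104 CPM in stage 6 haustorium, and 240.2 and 7.80 CPM in leaf. Leaf replicate 1 was 30.8-fold above leaf replicate 2 at this locus, whose stage 6 haustorium libraries differed in the other order. Cluster_11214 (136 nt, positions 14982485 to 14982620 of CACSLK010024540.1, 1961 nt from the gene SHERM_20819) had 379.9 and 99.5 CPM in unstaged haustorium, 431 and 47.8 CPM in stage 6 haustorium, and 1206 and 73.2 CPM in leaf. It had its lowest values in replicate 2 of both stage 6 groups. Cluster_23467 (147 nt, positions 13444399 to 13444545 of CACSLK010034108.1, 510 nt from the gene SHERM_07429) had 83.2 and 108 CPM in unstaged haustorium, 142 and 4.32 CPM in stage 6 haustorium, and 26.8 and 114 CPM in leaf. Here replicate 1 was the higher library in stage 6 haustorium, 32.9-fold, and replicate 2 in leaf.

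Cluster_9089 (226 nt, positions 1896820 to 1897045 of CACSLK010020742.1, 32594 nt from the gene SHERM_18457) had 21.0 and 276 CPM in unstaged haustorium, 79.5 and 5.03 CPM in stage 6 haustorium, and 65.6 and 23.4 CPM in leaf. A single library, haustorium replicate 3, was high, and the higher mean of unstaged haustorium rests on it. Cluster_2036 (196 nt, positions 333942 to 334137 of CACSLK010003813.1, 3811 nt from the gene SHERM_11393) had 32.8 and 1.18 CPM in unstaged haustorium, 2.31 and 22.4 CPM in stage 6 haustorium, and 2.99 and 6.72 CPM in leaf. This was the least abundant of the 32 loci, with 7 and 8 reads in stage 6 haustorium replicate 1 and haustorium replicate 3. It was high in 1 library of each haustorium group and at or below 6.72 CPM in leaf. Cluster_2036 and Cluster_16346 were the 2 loci that fell under 10 reads in any library. The study sets a floor of 10 miRNA and miRNA* reads, which 1 library is enough to meet. Here it is applied to all reads of the locus and to every library, which is stricter in the second respect. Counts of all reads reached 275 at Cluster_2036 and 2547 at Cluster_16346, so neither is shown to miss the floor of the study. The other 30 loci (93.8%) had at least 10 reads in every library, against 73.3% of the shorter *MIRNA* loci and 40.5% of all loci, and their lowest count was 15 reads.

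Of the 10 most abundant *MIRNA* loci, 5 were longer than 130 nt. Cluster_1694 (150 nt, positions 5153724 to 5153873 of CACSLK010003174.1, 26197 nt from the gene SHERM_11016) had 1019 and 781 CPM in unstaged haustorium, 3063 and 1203 CPM in stage 6 haustorium, and 2239.6 and 1951 CPM in leaf. Stage 6 haustorium spanned the leaf level here, and unstaged haustorium was lowest. Cluster_21027 (162 nt, positions 3258331 to 3258492 of CACSLK010030875.1, 3438 nt from the gene SHERM_04896) had 349 and 516 CPM in unstaged haustorium, 549 and 962 CPM in stage 6 haustorium, and 897 and 779 CPM in leaf. This locus varied little, with an SD of log2(CPM + 1) of 0.56. Cluster_16982 (137 nt, positions 12009958 to 12010094 of CACSLK010027833.1, 1837 nt from the gene SHERM_27505) had 579 and 135 CPM in unstaged haustorium, 448 and 201 CPM in stage 6 haustorium, and 979.7 and 519 CPM in leaf. Leaf replicate 2 lay below haustorium replicate 1 without a stage, which was 4.29-fold above replicate 3.

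Cluster_13957 (148 nt, positions 9783227 to 9783374 of CACSLK010027752.1, 2370 nt from the gene SHERM_23731) had 135 and 297 CPM in unstaged haustorium, 1031 and 172 CPM in stage 6 haustorium, and 437 and 1057 CPM in leaf. The 2 highest libraries came from different tissues, stage 6 haustorium replicate 1 and leaf replicate 2. Cluster_22010 (189 nt, positions 19033430 to 19033618 of CACSLK010031421.1, 3642 nt from the gene SHERM_06054) had 254 and 175 CPM in unstaged haustorium, 20.1 and 651 CPM in stage 6 haustorium, and 1336 and 15.1 CPM in leaf. The opposite pair was highest here, stage 6 haustorium replicate 2 and leaf replicate 1, and the leaf libraries were 88.3-fold apart. Across the 32 loci, replicate 1 was the higher library in leaf and the lower in stage 6 haustorium at 14 loci, the reverse held at 4, and both groups had the same order at 14.

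**Figure D4:**
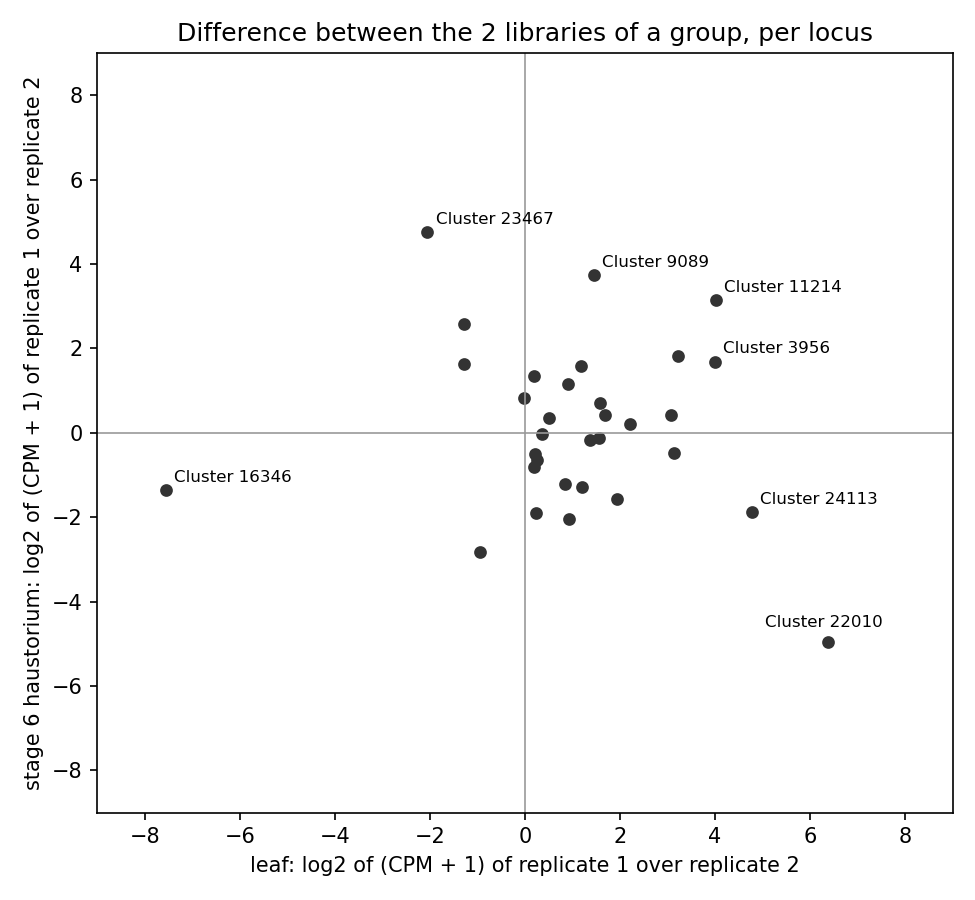
Log2 ratio of CPM + 1 of replicate 1 over replicate 2 in leaf (horizontal axis) and in stage 6 haustorium (vertical axis), with 1 point for each of the 32 loci. A locus with equal libraries would lie at 0 on both axes. Cluster_16346 lies at -7.55 in leaf and Cluster_22010 at 6.37 in leaf and -4.95 in stage 6 haustorium.

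Libraries of a group were on the whole no closer to each other over these loci than libraries of different groups. Over the 32 loci, which share the libraries and are not replicates, the Spearman correlation of CPM had a median of 0.61 in the 3 pairs within groups and 0.66 in the 12 pairs between groups, and the ranges overlapped (0.48 to 0.69 and 0.53 to 0.83). Over all loci the medians were 0.35 and 0.38.

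Tissue and stage were then compared by edgeR's quasi-likelihood test on all loci, with TMM scaling and Benjamini-Hochberg adjustment. All 32 loci passed its filter on low counts. Leaf against stage 6 haustorium called none of them at an adjusted p of 0.05, and none of the 24421 loci tested (0%), with 1 of the 32 and 2% of all loci at an unadjusted p under 0.05. Stage 6 against unstaged haustorium, which shares the stage 6 libraries, called none either (0% of all loci), with 0 of the 32 and 4.39% of all loci under 0.05 unadjusted. Leaf against the mean of both haustorium groups, which shares libraries with both other comparisons, called none (0%), with 1 of the 32 and 3.26% under 0.05 unadjusted. DESeq2 called 0, 0 and 1 of the 32 loci in the 3 comparisons, where it called 0.463%, 1.57% and 0.802% of all loci. The spread between libraries was wide, with a common biological coefficient of variation of 1.00, so a missing call does not show that a locus was alike in the groups.

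The median log2 fold change over the 32 loci was 0.54 in leaf against stage 6 haustorium, beside 0.049 over all loci tested, and 25 of the 32 values were above 0, as were 52.6% of all loci. Without leaf replicate 2 the median was -0.036 with 16 values above 0, and without stage 6 haustorium replicate 1 it was 1.48. Against the mean of both haustorium groups, leaf gave a median of 0.63, beside 0.12 over all loci, with 26 of 32 values above 0 (56.5% of all loci), and the median fell to 0.37 without leaf replicate 2 and was 1.02 without stage 6 haustorium replicate 1. Stage 6 against unstaged haustorium gave a median of 0.035, beside 0.018 over all loci, with 16 values above 0 (50.6% of all loci). That median was -0.55 without stage 6 haustorium replicate 1, and with library totals in place of TMM it was 0.81, beside 0.74 over all loci.

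**Figure D5:**
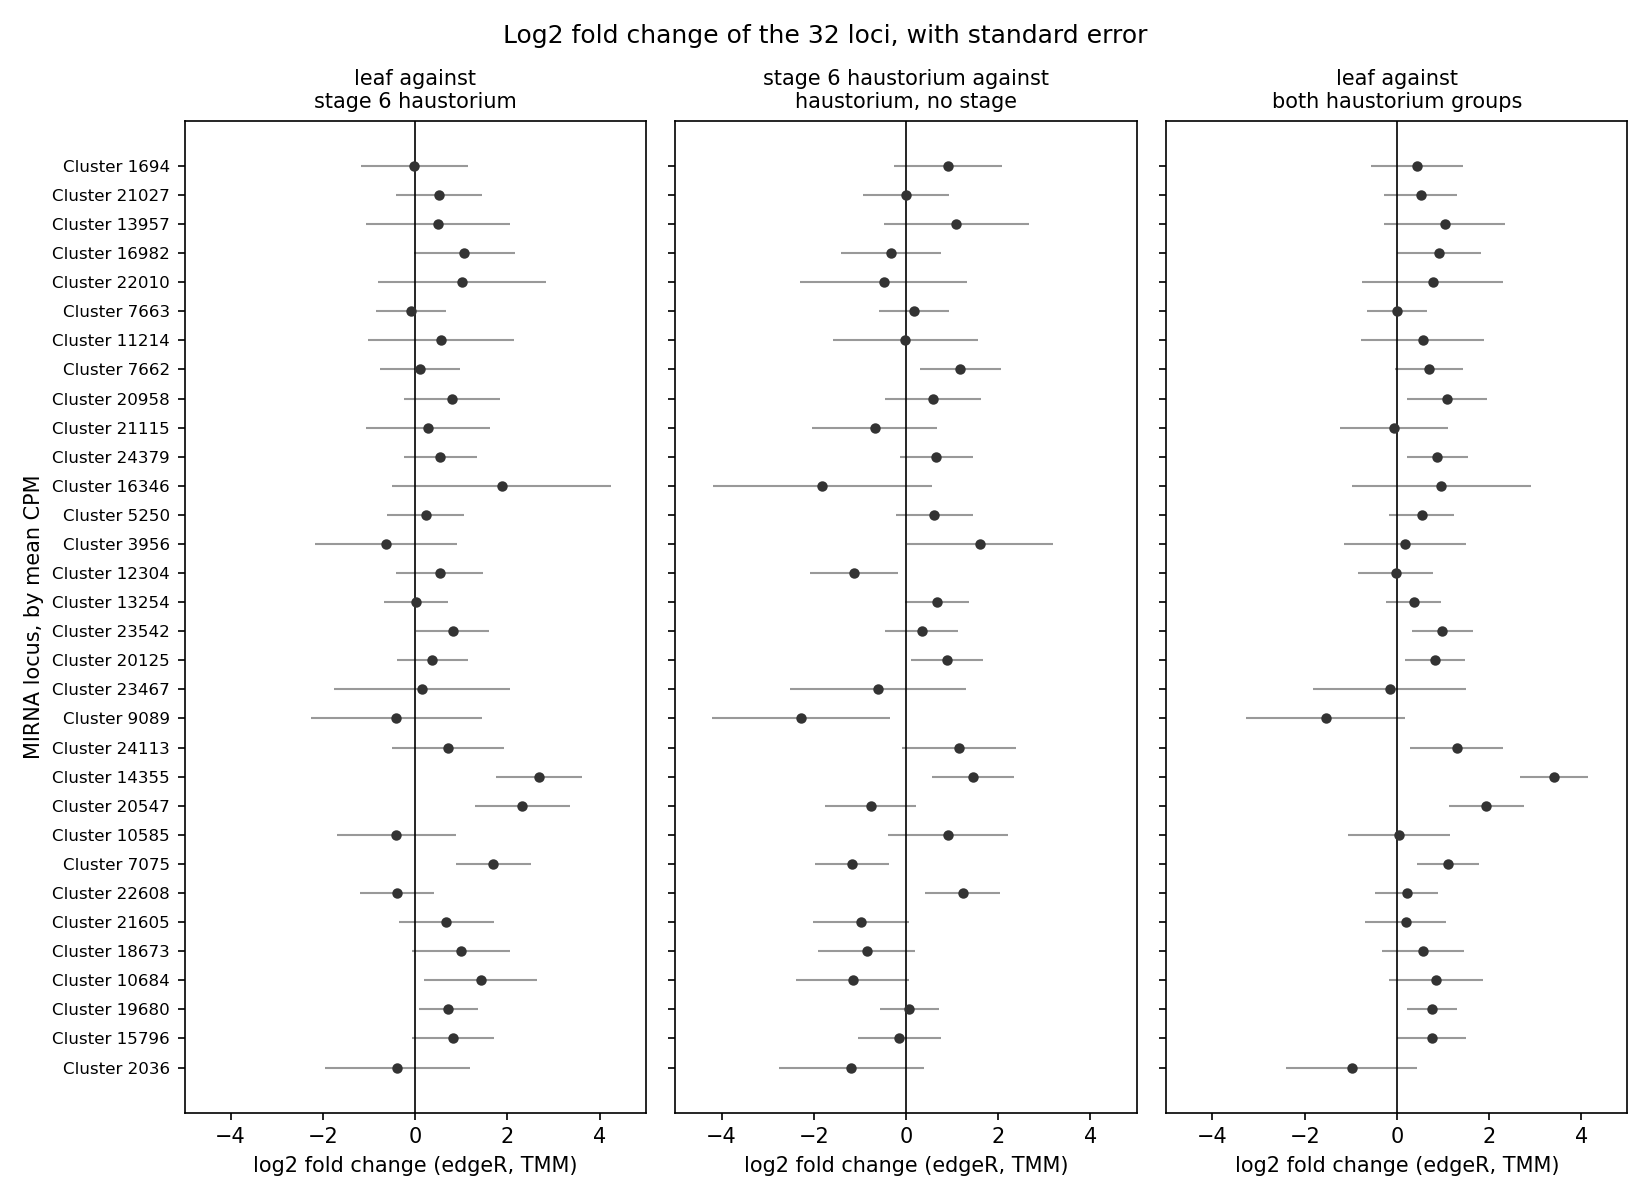
Log2 fold change from edgeR with its standard error (horizontal axis) for the 32 loci (rows, in the order of mean CPM) in the 3 comparisons. No value passed an adjusted p of 0.05 in edgeR. Cluster_14355 has the highest value in both comparisons with leaf, at 2.69 and 3.41.

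Among the 27 loci below the 10 most abundant, the largest differences between leaf and haustorium were those of Cluster_14355 and Cluster_20547. In leaf, Cluster_14355 averaged 149 ± 169 CPM (SD, n = 2), against 11.8 ± 8.78 CPM (SD, n = 4) over the haustorium libraries. Its log2 fold change against both haustorium groups was 3.41 (standard error 0.74), with an adjusted p of 0.99998 from edgeR's quasi-likelihood test and 0.0202 from DESeq2, whose call it alone received. The value ranged from 2.15 to 4.03 over all alternatives, and was 2.15 without both libraries that stood apart. Against stage 6 haustorium alone it was 2.69 (standard error 0.92), or 1.30 without both libraries that stood apart, while the value of stage 6 against unstaged haustorium was 1.45 (standard error 0.89). Neither passed the test.

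The mean of Cluster_20547 was 106 ± 19.1 CPM (SD, n = 2) for leaf, against 28.2 ± 20.5 CPM (SD, n = 4) over the haustorium libraries. Its log2 fold change was 2.32 (standard error 1.03) against stage 6 haustorium and 1.94 (standard error 0.81) against both haustorium groups. Over all alternatives these values stayed between 1.31 and 2.95, and none passed the test in edgeR or DESeq2.

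At the other end, most low values turned direction when 1 library was left out. In leaf against stage 6 haustorium, the log2 fold change of Cluster_3956 was -0.63 (standard error 1.55), which became 1.34 with stage 6 haustorium replicate 1 omitted and 0.15 with leaf replicate 2 omitted. That of Cluster_10585 was -0.41 (standard error 1.29), which became 0.065 with stage 6 haustorium replicate 2 omitted and 0.064 with leaf replicate 1 omitted. In leaf against both haustorium groups, Cluster_9089 was at -1.55 (standard error 1.72), which became 0.18 without haustorium replicate 3 and 0.50 when stage 6 haustorium replicate 1 was omitted, and Cluster_2036 at -0.98 (standard error 1.42), which became 0.64 without haustorium replicate 1. Between the haustorium groups, the lowest value was that of Cluster_9089, -2.28 (standard error 1.94), which was at 1.19 without haustorium replicate 3. The highest value there also turned direction. It was that of Cluster_3956, 1.61 (standard error 1.58), which was at -0.37 without stage 6 haustorium replicate 1. Cluster_16346, again low in stage 6 against unstaged haustorium, had -1.82 (standard error 2.37) and stayed below 0 in all its alternatives.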

How the data were processed

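Small RNA was counted in 6 libraries of *S. hermonthica*. Adapters were trimmed, and ShortStack 4.0.4 was run with its defaults on the SHERM assembly to find loci. The authors deposited, for each library, a raw count for each locus with its coordinates and *MIRNA* mark. The files give 1 count for all reads of a locus, without setting miRNA, miRNA* or host reads apart, and PCR copies may be among them. The alignment step is not described further here. Depth was the total over 25056 loci. The 32 loci, the rule for named loci and the comparisons were chosen with earlier results of these data known.

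All loci were fitted with edgeR 4.0.16 under R 4.3.3 (glmQLFit, TMM, filterByExpr, 3 groups, 3 residual degrees of freedom, threshold 0.05), and p-values were adjusted over all loci tested. Log2 fold changes were named for the 2 highest and 2 lowest loci of each comparison below the 10 most abundant, and for loci called by edgeR or DESeq2. Shares were compared by an exact permutation test over libraries. Alternatives were DESeq2 1.42.0, other scalings, filters and floors on reads, the omission of each library in turn, and a replicate block. Distances to the 29520 annotated SHERM genes count the bases between both features. Tables and plots were made with Python 3.11.15 (numpy 2.4.6, pandas 2.3.3, matplotlib 3.10.9 and scipy 1.17.1).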

Additional observations from a re-analysis of the deposited data

How the results depend on the processing

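In edgeR no locus was called in any alternative or in any comparison, which shows no stability at this spread. DESeq2 called 116, 393 and 201 of all loci in leaf against stage 6 haustorium, stage 6 against unstaged haustorium, and leaf against both, with 1 of the 32 loci in the last (Cluster_14355, log2 fold change 3.39). The cause of these differences was not tested. With library totals in place of TMM, the median of the 32 loci was 0.81 between the haustorium groups and 0.94 in leaf against both, and Cluster_3956 turned to 0.12 in leaf against stage 6 haustorium. Over all loci, that scaling moved the median from 0.018 to 0.74 and from 0.12 to 0.32. When each library was left out in turn, the medians ranged from -0.036 to 1.48 (leaf against stage 6 haustorium), from -0.55 to 0.46 (between the haustorium groups) and from 0.37 to 1.02 (leaf against both). The log2 fold changes that turned sign ranged from -2.49 to 1.34 (Cluster_3956) and -1.13 to 0.065 (Cluster_10585) in leaf against stage 6 haustorium, from -0.37 to 3.92 (Cluster_3956) and -6.38 to 1.19 (Cluster_9089) between the haustorium groups, and from -2.78 to 0.64 (Cluster_2036) and -2.03 to 0.50 (Cluster_9089) in leaf against both.

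Loci whose groups did not overlap numbered 5 above and 3 below with TMM in stage 6 against unstaged haustorium. When 1 library was left out, they ranged from 5 to 20 above and 0 to 8 below in leaf against stage 6 haustorium, 12 to 18 above and 1 to 8 below between the haustorium groups, and 3 to 19 above and 0 to 3 below in leaf against both, since a lone library overlaps with less by construction. Leaving out both libraries that stood apart was chosen after the data were seen. It left 1 leaf library against 1 of stage 6 haustorium, where every locus must be above or below. The 15 above and 17 below in that comparison therefore show nothing about separation. Between the haustorium groups 17 were above and 3 below, and in leaf against both 9 were above and 5 below. No share of all loci stands beside any of the counts with libraries left out. With both libraries omitted, the median between the haustorium groups was 0.43, beside -0.28 over all loci. It was 0.29 in leaf against stage 6 haustorium and 0.55 in leaf against both, beside 0.068 and 0.10 over all loci. Cluster_2036 (0.55, leaf against both) and Cluster_10585 (0.53, leaf against stage 6 haustorium) then turned sign. Loci with 10 reads in every library numbered 30 to 31 when a library was left out. The share of reads was then 0.115 to 0.586 percentage points higher in leaf than over the haustorium libraries of both groups. At the lower end, leaf replicate 2 alone (0.680%) lay below the stage 6 haustorium mean of 0.717%.

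The replicate numbers were not taken to pair leaf with haustorium at stage 6. Deviations of same-numbered libraries correlated at -0.12 over 24250 loci. With 2 libraries per group this value cannot show whether the numbers pair, since crossing them only turns its sign. With a replicate block, leaf against stage 6 haustorium called 0 loci (292 at an unadjusted p under 0.05), and the median of the 32 was 0.49 on 1 residual degree of freedom. A crossed replicate block, added after the data were seen, also called 0. The 3031863 reads of stage 6 haustorium replicate 1 limit the depth: a count of 0 there would allow up to 0.989 CPM, for counting error only.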
